A study of Bos taurus with 8 samples.

Results

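The genes described here encode the core of PI3K, AKT and MAP kinase signalling, the kinase relays that carry the insulin signal inside the cell. They are GRB2, PIK3CA, PIK3CB, PIK3R1, PIK3R2, AKT1, MAP2K1, MAP2K2 and MAPK3, and every array probe whose platform gene symbol equals one of these names was taken. This gave 9 of the 15229 gene symbols on the array, with 12 of its 43794 bovine probes. RNA was measured in bovine blastocysts, early embryos with an inner cell mass and an outer trophectoderm, made in vitro from oocytes of slaughterhouse ovaries. The oocytes had matured with bovine insulin at 0.1 µg/ml (INS0.1), with bovine insulin at 10 µg/ml (INS10), or with no insulin added (0 µg/ml, control), and the insulin was therefore present during maturation of the oocyte, before fertilisation. On each of the 8 two-colour arrays, RNA of an insulin group in 1 dye was hybridised together with control RNA in the other, with 4 arrays per dose. Insulin RNA was in the red dye Cy5 on replicates 1 and 2 of each dose and in the green dye Cy3 on replicates 3 and 4. The labels call the replicates biological, while the number of embryos in each, and whether control RNA was shared between arrays, were not given in the sources used here.

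When insulin binds its receptor, adaptor proteins such as GRB2 couple the receptor to RAS, which starts the relay of RAF, MEK (MAP2K1 and MAP2K2) and ERK (here MAPK3). In parallel, phosphoinositide 3-kinase (PI3K) makes the membrane lipid PIP3, to which AKT binds and is then activated. These steps run by phosphorylation, which an array of RNA does not measure. In early mammalian embryos the MEK and ERK relay is known for its part in the choice between epiblast and hypoblast, and PI3K and AKT for cell survival and glucose uptake.

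In blastocysts from oocytes matured with insulin, 1 of the 9 genes, MAP2K2, was higher than in control blastocysts, and the other 8 had no difference that passed the test. Each value below is a log2 ratio of insulin over control on an array, so that 1 is a doubling, or a channel intensity in arbitrary units after normalisation. A reading is 1 dye channel on 1 array, and a probe was tested if it was detected, which means brighter than the negative controls, in at least 4 of 16 readings. Of the 12 probes 11 were tested, at least 1 for each of the 9 genes. Adjusted p-values come from limma with Benjamini-Hochberg adjustment over all 29362 tested probes, with a threshold of 0.05. With both doses averaged, 1 of the 11 probes (9.09%) passed, against 1.67% of all tested probes in either direction and 1.5% higher, and this was a single probe.

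Facts of the whole set of arrays bear on these values. The median spot had an intensity of 163 to 255 over a background of 33 to 47 in Cy5, and of 234 to 348 over 31 to 37 in Cy3, and the number of arrays limits the precision. Markers of both blastocyst lineages were detected, 9 of 10 for trophectoderm and 9 of 10 for inner cell mass and hypoblast, and no probe under the symbols IFNT2 and GATA6 was used here. The array of INS0.1 replicate 1 was unlike the others: among 269 probes called higher in a fit of only the INS10 arrays, the median log2 ratio there was 0.06, against 0.80 to 0.97 on INS0.1 replicates 2 to 4. Estimates that moved most without it are given both ways. In RNA from whole embryos, fewer cells of a type and less RNA per cell cannot be told apart.

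**Figure D1:**
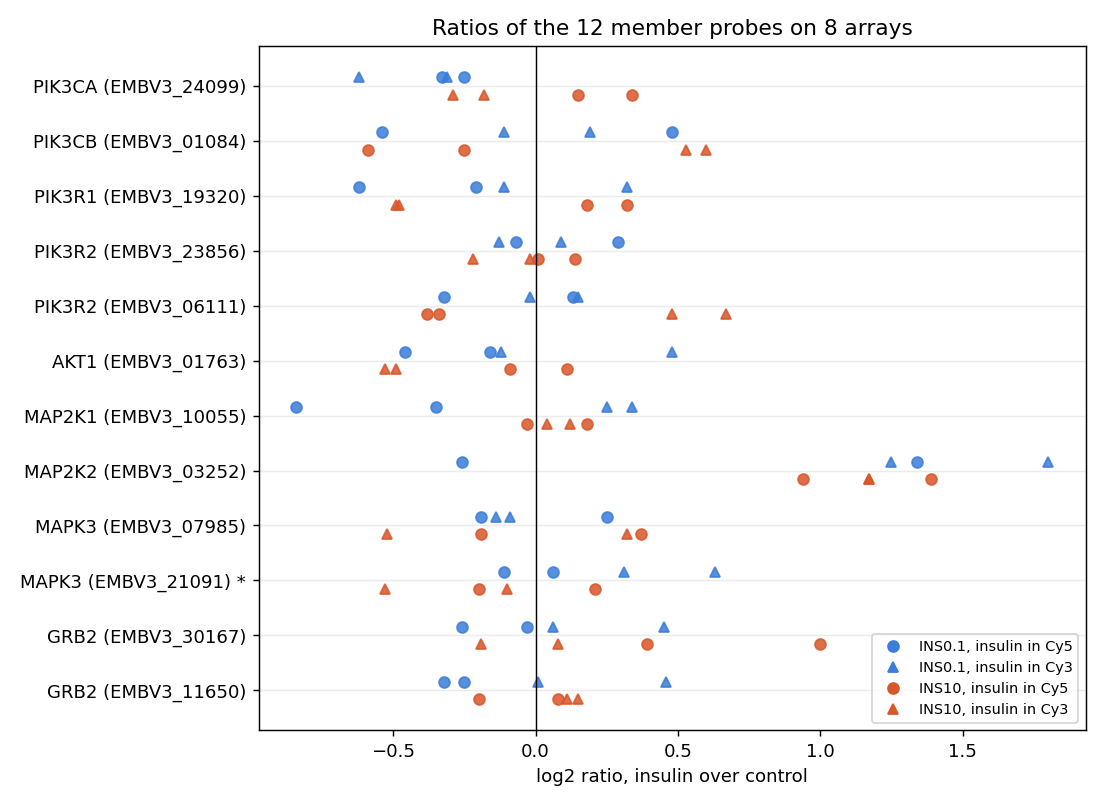
Log2 ratio of insulin over control (x axis) for each of the 12 probes (rows) on each of the 8 arrays; blue is INS0.1, orange is INS10, circles are arrays with insulin in Cy5 and triangles arrays with insulin in Cy3. MAP2K2 lies between 0.94 and 1.80 on 7 arrays and at −0.26 on INS0.1 replicate 1, while the other probes scatter around 0; the asterisk marks the MAPK3 probe that was detected in 0 of 16 readings and was not tested.

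GRB2 is the adaptor that brings the RAS exchange factor SOS to activated receptors. Its brighter probe (EMBV3_30167, detected in 16 of 16 readings) had log2 ratios of −0.26, −0.03, 0.06 and 0.45 on INS0.1 replicates 1 to 4. On INS10 replicates 1 to 4 they were 1.0, 0.39, 0.08 and −0.19. The 1.0 on INS10 replicate 1 was the highest ratio of any of these genes outside MAP2K2, and the ratios of the 2 doses overlapped. The average was 0.19 ± 0.13 over both doses (limma estimate ± SE, adjusted p = 0.683) and 0.32 at INS10 (adjusted p = 0.828), so GRB2 did not pass. Without INS0.1 replicate 1, its INS0.1 estimate was 0.21, against 0.06 with it, and neither passed. Its dimmer probe (EMBV3_11650) was detected in 6 of 16 readings and averaged 0.005 over both doses. At INS0.1 that probe was detected in 0 of 4 insulin and 0 of 4 control channels, and at INS10 in 3 of 4 insulin and 3 of 4 control channels.

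PIK3CA and PIK3CB encode catalytic subunits of PI3K, the alpha and beta forms. PIK3CA (EMBV3_24099) was detected in 16 of 16 readings, with intensities of 279 to 437 in the insulin channels and 346 to 543 in the control channels. Its log2 ratios were −0.33, −0.25, −0.62 and −0.31 on INS0.1 replicates 1 to 4. On INS10 replicates 1 to 4 they were 0.34, 0.15, −0.29 and −0.18. All 4 INS0.1 arrays were thus below 0, while the INS10 arrays lay on both sides of it, and 1 of them, at −0.29, fell within the INS0.1 range. The INS0.1 estimate was −0.38 ± 0.15 (SE), with an unadjusted p of 0.0179 and an adjusted p of 0.491, against 0.004 at INS10, and the difference between doses of 0.38 had an unadjusted p of 0.0805. Neither passed the threshold over all probes, and without INS0.1 replicate 1 the INS0.1 estimate was −0.33 (adjusted p = 0.618).

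PIK3CB (EMBV3_01084, 16 of 16 readings) had log2 ratios of 0.48, −0.54, −0.11 and 0.19 at INS0.1 and of −0.25, −0.59, 0.53 and 0.60 at INS10. Both doses spanned 0, and the average over both was 0.04 ± 0.13 (SE, adjusted p = 0.956). The mean was −0.23 where insulin RNA was in Cy5 (4 arrays) and 0.30 where it was in Cy3 (4 arrays), a dye effect that did not pass the test (adjusted p = 0.240). Without INS0.1 replicate 1, the array with the ratio of 0.48, the average was −0.11 (adjusted p = 0.839).

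PIK3R1 and PIK3R2 encode regulatory subunits, which hold the catalytic subunit and dock it to phosphorylated receptors and adaptors. PIK3R1 (EMBV3_19320) was near the detection limit, with 7 of 16 readings detected. Its log2 ratios were −0.62, −0.21, −0.11 and 0.32 at INS0.1 and 0.32, 0.18, −0.48 and −0.49 at INS10, an average of −0.14 (adjusted p = 0.787). The doses overlapped over nearly their whole range. Without INS0.1 replicate 1, the array at −0.62, the average was −0.03 (adjusted p = 0.968), and the INS0.1 estimate was 0.05, against −0.15 with it.

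PIK3R2 had 2 tested probes. The brighter (EMBV3_23856, 16 of 16 readings) varied least of all 12 probes, with log2 ratios of −0.07, 0.29, 0.09 and −0.13 at INS0.1 and of 0.14, 0.01, −0.22 and −0.02 at INS10. Its average over both doses was 0.01, with a 95% interval of −0.21 to 0.23. The dimmer probe (EMBV3_06111, 5 of 16 readings) had −0.32, 0.13, −0.02 and 0.15 at INS0.1 and −0.34, −0.38, 0.48 and 0.67 at INS10. At INS0.1 it was detected in 1 of 4 insulin channels and in 0 of 4 control channels, so its ratios there rest on readings mostly not above the negative controls.

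AKT1 encodes the kinase on which PI3K signalling converges. Its probe (EMBV3_01763) was detected in 13 of 16 readings, with intensities of 165 to 244 in insulin channels and 175 to 268 in control channels. The log2 ratios were −0.16, −0.46, −0.12 and 0.48 on INS0.1 replicates 1 to 4. On INS10 replicates 1 to 4 they were −0.09, 0.11, −0.53 and −0.49. On 6 of 8 arrays AKT1 was below 0, and the 2 channels' ranges overlapped. The estimate was −0.07 at INS0.1, −0.25 at INS10 and −0.16 ± 0.12 (SE) over both (adjusted p = 0.730), and none passed.

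MAP2K1 and MAP2K2 encode MEK1 and MEK2, the kinases that phosphorylate and activate ERK. MAP2K2 (EMBV3_03252) was detected in 16 of 16 readings. Its intensity in the insulin channel was 666, 2832, 2473 and 1130 on INS0.1 replicates 1 to 4, against 797, 1119, 708 and 475 in the control channel of the same arrays. On INS10 replicates 1 to 4 it was 1812, 2543, 1943 and 1114 in the insulin channel, against 947, 969, 864 and 496 in the control channel. At INS10 the lowest insulin channel was above the highest control channel, and at INS0.1 this held for replicates 2, 3 and 4 and not for replicate 1, the array on which insulin was below control. The 8 control channels themselves ran from 475 to 1119, with replicate 4 the lowest at both doses.

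As ratios, MAP2K2 stood at −0.26, 1.34, 1.80 and 1.25 on INS0.1 replicates 1 to 4 and at 0.94, 1.39, 1.17 and 1.17 on INS10 replicates 1 to 4, higher with insulin on 7 of 8 arrays. Over both doses it rose by a log2 ratio of 1.10 ± 0.15 (SE), or 2.14-fold, with a 95% interval of 0.79 to 1.41 (limma, adjusted p = 0.000376). This was the rank 8 log2 ratio among 11724 named genes, each taken at its brightest probe. At INS10 MAP2K2 rose by 1.17 ± 0.21 (2.24-fold, adjusted p = 0.0145), where 0.439% of all tested probes passed and 1 of the 11 probes did. At INS0.1 the estimate of 1.03 ± 0.21 (2.05-fold) did not pass (adjusted p = 0.0557). There 0.102% of all probes passed and 0 of the 11, with 2 of the 11, MAP2K2 and PIK3CA, at an unadjusted p under 0.05, beside 7.67% of all tested probes.

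**Figure D2:**
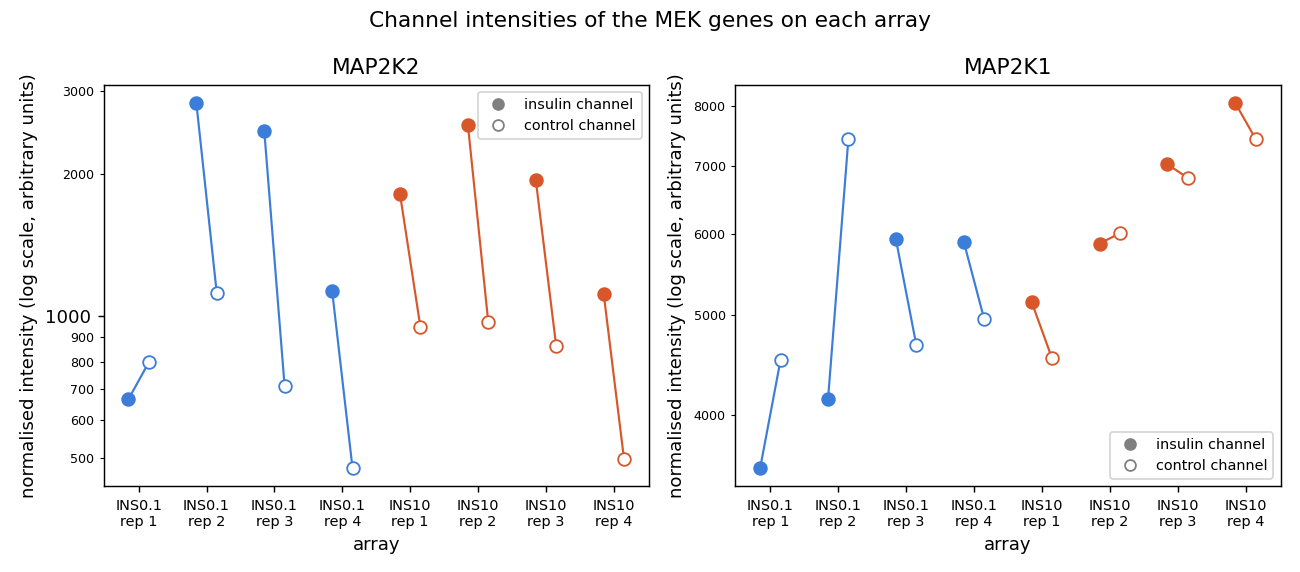
Normalised channel intensity (log scale, arbitrary units) of MAP2K2 (left) and MAP2K1 (right) on each array, with the insulin channel as a filled point joined to the control channel of the same array as an open point. MAP2K2 was higher in the insulin channel on 7 of 8 arrays and MAP2K1 on 5 of 8; the vertical scales of the 2 panels differ, and levels of different probes are not comparable.

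The MAP2K2 ratio at INS0.1 turned on replicate 1. Without that array it was 1.45 at INS0.1 (adjusted p = 0.00046) and 1.31 over both doses (adjusted p = 2.55e-06), while without replicate 2 or 3 it was lower, down to 0.81. That array was singled out by probes called in a fit of only the INS10 arrays, where MAP2K2 itself passed (limma, adjusted p = 0.000623). The higher values without it are therefore no separate support for a rise. At INS10 the ratio stayed between 0.98 and 1.26 with any array left out, but the call was lost without INS10 replicate 1 (adjusted p = 0.184), replicate 2 (0.209) or replicate 3 (0.111). The call over both doses held under all 22 alternatives run, with adjusted p between 2.55e-06 and 0.00508. In the authors' deposited table, the log2 ratios of MAP2K2 were −0.27, 1.29, 1.71 and 1.26 at INS0.1 and 0.90, 1.42, 1.15 and 1.12 at INS10.

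**Figure D3:**
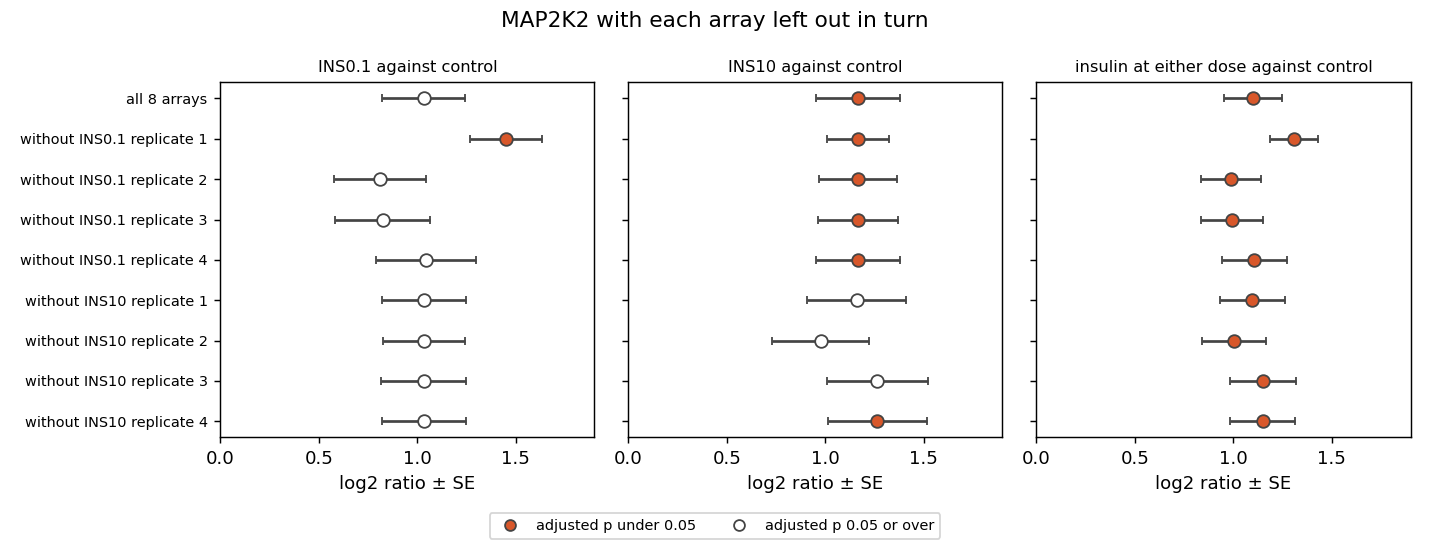
Log2 ratio of MAP2K2, insulin over control, with its SE (x axis), from all 8 arrays and with each array left out (rows), for INS0.1, INS10 and both doses averaged (panels); filled points have an adjusted p under 0.05. Over both doses all 9 points are filled; at INS0.1 the point without INS0.1 replicate 1, at 1.45, is the filled one.

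Between the doses MAP2K2 did not differ detectably. The INS10 ratio minus the INS0.1 ratio was 0.13 ± 0.30 (SE), with a 95% interval of −0.49 to 0.75 and an adjusted p of 1.0. That interval still holds differences of more than 0.5 in either direction, and without INS0.1 replicate 1 the difference was −0.29. Of all 29362 probes 0 passed in this comparison with limma, 0% of those tested, and 847 had an unadjusted p under 0.05. Of the 11 probes of these genes 0 passed and 0 had an unadjusted p under 0.05. Each dose was on a slide of its own, so that dose and slide cannot be told apart.

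MAP2K1 (EMBV3_10055), the closest relative of MAP2K2, did not pass the test and was detected in 16 of 16 readings. Its intensity was 3548, 4143, 5930 and 5897 in the insulin channel of INS0.1 replicates 1 to 4, against 4521, 7432, 4680 and 4959 in the control channel. On INS10 replicates 1 to 4 it was 5151, 5875, 7020 and 8052 in the insulin channel, against 4540, 6013, 6807 and 7428 in the control channel. The insulin and control channels overlapped at both doses, and the log2 ratios ran from −0.84 to 0.34 at INS0.1 and from −0.03 to 0.18 at INS10. The average was −0.04 ± 0.12 (SE), with a 95% interval of −0.28 to 0.20 (adjusted p = 0.955), an interval whose upper bound lies below the lower bound of 0.79 for MAP2K2.

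The MAP2K2 ratio exceeded the MAP2K1 ratio on 8 of 8 arrays, by 0.09, 2.18, 1.46 and 1.0 on INS0.1 replicates 1 to 4 and by 0.75, 1.43, 1.13 and 1.05 on INS10 replicates 1 to 4. The mean excess was 1.14 ± 0.60 log2 units (SD, n = 8; exact two-sided sign-flip permutation test, p = 0.00781). The pair was set side by side with the MAP2K2 result known, so this p is no separate support for a rise of MAP2K2. If the same replicate numbers are averaged over the doses, 4 values remain, and the exact p is 0.125, the smallest that 4 values allow.

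MAPK3 encodes ERK1, the last kinase of the relay. Its tested probe (EMBV3_07985) was detected in 8 of 16 readings and had log2 ratios of 0.25, −0.19, −0.09 and −0.14 at INS0.1 and of 0.37, −0.19, −0.52 and 0.32 at INS10. The ratios lay on both sides of 0 at both doses and averaged −0.02 (adjusted p = 0.973). A second MAPK3 probe (EMBV3_21091) was detected in 0 of 16 readings and gives no ratio to interpret.

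The 10 tested probes other than MAP2K2 averaged between −0.19 and 0.19 over both doses, with adjusted p between 0.588 and 0.994. Their 95% intervals together ran from −0.41 to 0.45, which is from 1.33-fold lower to 1.37-fold higher. With all 8 arrays, larger changes in the measured ratio lay outside the interval of every one of these probes, each interval taken singly. The PIK3R1 probe, the tested MAPK3 probe and the dimmer PIK3R2 and GRB2 probes were detected in only 5 to 8 readings. Many of their readings were not above the negative controls, so for them larger changes in the RNA were not excluded. Intensities were also low for AKT1 (165 to 268) and the brighter PIK3R2 probe (188 to 267). AKT1 was detected in 2 of 4 insulin channels at INS0.1, and for these probes too larger changes in the RNA may be missed. The intervals at a dose were wider, from −0.68 to 0.43 at INS0.1 and from −0.61 to 0.69 at INS10. Without INS0.1 replicate 1, the 10 probes averaged between −0.16 and 0.27 over both doses, and none passed in any of the 4 comparisons with limma. The 0.27 was that of the brighter GRB2 probe (SE 0.13), which also set the upper bound of 0.45, so that bound depends on this array.

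**Figure D4:**
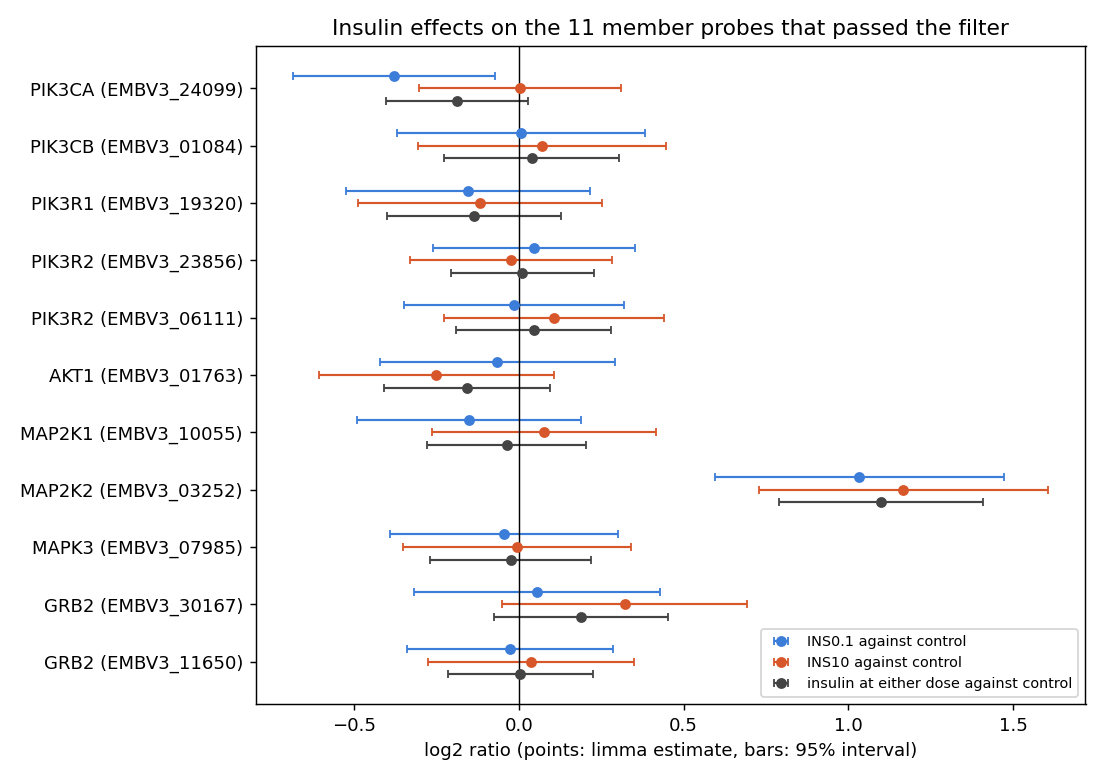
Estimated log2 ratio of insulin over control (points) with 95% interval (bars) for each of the 11 tested probes, at INS0.1 (blue), at INS10 (orange) and averaged over both doses (dark). The MAP2K2 intervals lie above 0 in all 3 comparisons, and for the 10 other probes the bars over both doses stay between −0.41 and 0.45.

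From array to array, the ratios of the 9 genes had correlations of both signs. Over 55 pairs of probes, the Pearson correlation of log2 ratios across the 8 arrays ran from −0.73 to 0.87, with a median of 0.09 and 35 pairs above 0. MAP2K2 correlated with the 10 other probes at −0.46 to 0.72. Without INS0.1 replicate 1, 29 of the 55 pairs were above 0 with a median of 0.03, and the range for MAP2K2 was −0.71 to 0.70. There MAP2K2 with PIK3CA stood at −0.71, against −0.11 on all 8 arrays, and its correlation with the brighter GRB2 probe (−0.46, against 0.23) and with PIK3R1 (−0.09, against 0.44) changed sign. These are descriptions over few arrays that share slides and dyes.

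Among all named genes, those whose ratios ran most like MAP2K2 were PCOLCE2 (r = 0.978 over 8 arrays), LAMP1 (0.977) and PSMB3 (0.958). They were picked as the 3 highest correlations over few arrays, so the size of r is no evidence of a link. PCOLCE2 encodes an enhancer of procollagen processing, LAMP1 a lysosomal membrane protein and PSMB3 a proteasome subunit. LAMP1 had ratios of 0.11, 1.07, 1.31 and 0.93 at INS0.1 and of 0.85, 0.91, 1.02 and 0.94 at INS10, and rose by 0.89 over both doses (adjusted p = 0.000327). PSMB3 averaged 0.35 and PCOLCE2 0.06, and neither passed. INS0.1 replicate 1 was the lowest array for all 3, and without it the correlations were 0.873, 0.863 and 0.762 for PCOLCE2, LAMP1 and PSMB3. Those values are for genes already picked on all 8 arrays.

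Around the 9 genes, 145 other genes of the same relays were listed by role, and 109 of them were measured. With both doses averaged, 1 of the 109, MAP2K5, was higher and 0 were lower, against 2.35% of all named genes past the threshold in either direction, 2.15% higher and 0.196% lower. At INS0.1 and at INS10 0 of the 109 passed, against 0.145% and 0.597% of named genes, with 14 and 8 of the 109 at an unadjusted p under 0.05 in limma, beside 8.81% and 7.86% of named genes. Over both doses, 20 of the 109 had an unadjusted p under 0.05 in limma, a larger share than the 11.8% of named genes. Of the 109, 42 had a positive estimate over both doses, a smaller share than the 48.0% of all named genes. These differences in share were not tested. The median was −0.04, beside −0.007 over all named genes.

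MAP2K5 encodes MEK5, the kinase that activates ERK5 in a relay parallel to MEK and ERK. Its log2 ratios were 1.01, 0.53, 0.53 and 0.08 on INS0.1 replicates 1 to 4 and 0.91, 0.28, 0.16 and 0.14 on INS10 replicates 1 to 4. It was above control on 8 of 8 arrays, most on replicate 1 of each dose, and rose by 0.45 ± 0.11 (SE, adjusted p = 0.0393) over both doses. The estimates of 0.54 at INS0.1 (adjusted p = 0.225) and 0.37 at INS10 (adjusted p = 0.620) did not pass. The call was lost without INS0.1 replicate 1 (0.113) or 3 (0.169) and without INS10 replicate 1 (0.185), 3 (0.111) or 4 (0.0837).

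Upstream of RAS, 9 adaptors and RAS exchange factors were measured, with a median of −0.03 over both doses and 4 estimates above 0. None passed at either dose or over both. The lowest unadjusted p belonged to SOS1, the exchange factor that GRB2 recruits, at −0.36 (adjusted p = 0.220), and to the adaptor CRK at −0.29 (0.339). Other tested probes of these genes gave −0.18 and 0.04 for SOS1 and −0.005 for CRK. The insulin receptor substrate IRS1 has a probe that did not pass the detection filter. Of 5 measured RAS proteins and RAS GTPase activators, 1 was above 0 and none passed; RASA1, a RAS GTPase activator, was at −0.28 (adjusted p = 0.292; 0.11 by its second probe) and the RAS relative RRAS2 at −0.19 (0.592).

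Between RAS and ERK, 11 RAF kinases and ERK scaffold or partner genes were measured, 4 of them above 0 with a median of −0.04, and none passed. IQGAP1, a scaffold for RAF, MEK and ERK, was at −0.30 by its brightest probe (adjusted p = 0.300) and at 0.15 and 0.14 by its 2 other tested probes, which differ from it in sign. PEA15, a protein that holds ERK in the cytoplasm, was at 0.25 (0.526) and at −0.01 by its second probe.

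On the PI3K side, 4 other subunits, 13 lipid phosphatases and AKT regulators, 10 AKT substrates and 15 genes of the mTOR complexes and their outputs were measured. None of these 42 genes passed at either dose or over both. The lowest unadjusted p among the subunits belonged to PIK3R3 at 0.17 (adjusted p = 0.716) and PIK3R4 at −0.17 (0.728). INPPL1, which encodes the lipid phosphatase SHIP2, was at −0.35 (adjusted p = 0.220), and AKT2, the AKT form known for insulin-driven glucose uptake, at 0.32 (0.345). AKT2 ratios were 0.04, 0.71, 0.86 and 0.43 at INS0.1 and −0.09, 0.91, −0.16 and −0.12 at INS10, above 0 on 5 of 8 arrays. Among AKT substrates, ACLY, the enzyme that makes cytosolic acetyl-CoA, was at −0.32 (0.292), and PFKFB2, a regulator of glycolysis, at −0.25 (0.453). Of the mTOR genes, SGK1, a kinase activated by mTOR complex 2, was at −0.33 (0.278), and RICTOR, a subunit of that complex, at −0.24 (0.496).

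Downstream of ERK, 23 substrates and feedback targets were measured, 9 of them above 0 with a median of −0.04, and none passed. IER3, an immediate early gene, was below control on 8 of 8 arrays, with ratios of −0.29, −0.86, −0.05 and −0.25 at INS0.1 and of −1.08, −0.06, −0.65 and −0.17 at INS10. Its average of −0.43 did not pass (adjusted p = 0.100), but it did with median centring in place of loess (−0.49, 0.0361) and without INS10 replicate 2 (−0.54, 0.0420). SPRED1, an inhibitor of the RAS to ERK relay, was at −0.41 (adjusted p = 0.108) and, by its other tested probes, at −0.25 and 0.07. In the JNK, p38 and ERK5 arms, 7 of 19 measured genes were above 0; beside MAP2K5, the lowest unadjusted p was that of MAP2K4, a JNK activator, at −0.27 (0.400).

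**Figure D5:**
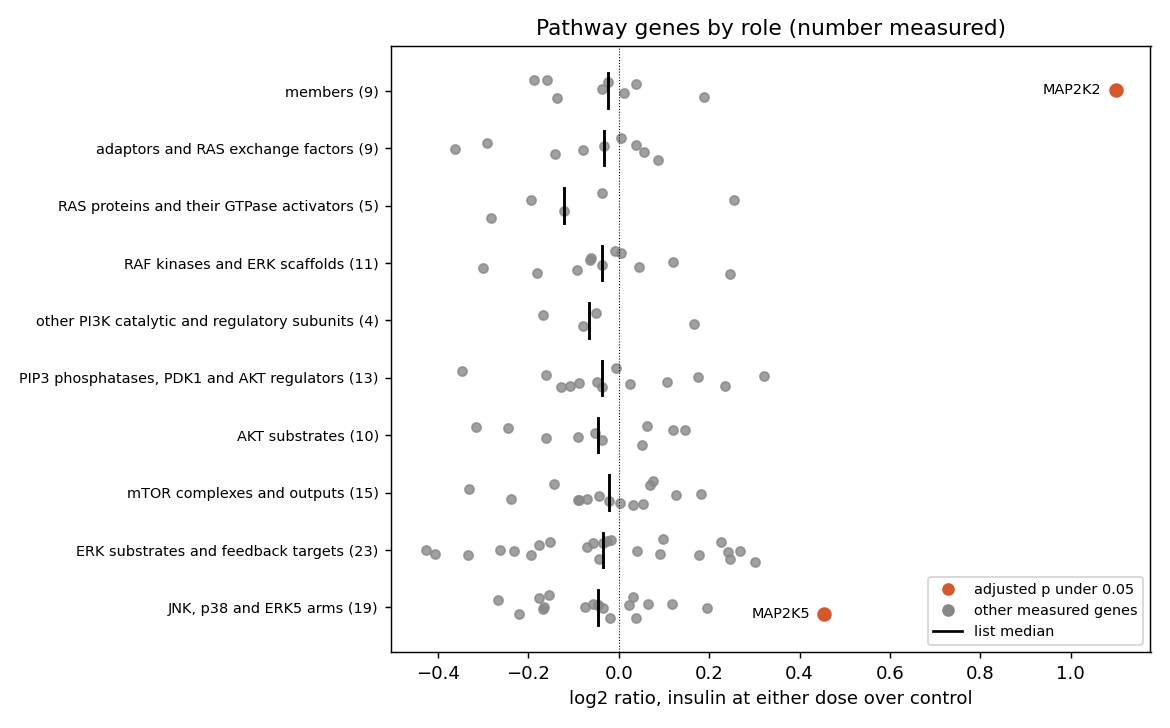
Log2 ratio of insulin over control, averaged over both doses (x axis), for each measured gene at its brightest probe, grouped by role (rows, with the number measured); black bars are list medians and orange points have an adjusted p under 0.05. MAP2K2 at 1.10 and MAP2K5 at 0.45 are the orange points; the list medians lie between −0.12 and −0.02.

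Cell markers were measured on the same arrays. Among trophectoderm markers GATA2 (0.57, adjusted p = 0.0116) and TEAD4 (0.69, 0.00121) rose over both doses, 2 of 9, and the summed intensity of the list was 120270 to 173660 in insulin channels and 111980 to 154740 in control channels. Among inner cell mass and hypoblast markers SOX2 (0.69, adjusted p = 0.00419) and APOA1 (0.68, 0.00513) rose, 2 of 9, with sums of 19712 to 38342 and 17729 to 26508 in insulin and control channels. The cumulus and granulosa list had 8 of 12 genes measured and 1 that rose, CYP11A1, which cleaves cholesterol to begin steroid production (0.84, adjusted p = 0.00347), with sums of 5236 to 15262 in insulin and 5568 to 8975 in control channels. TNFAIP6, AMH, FST and FOXL2 of that list were below the detection filter. Estimates over both doses were above 0 for 7 of 9 trophectoderm genes (median 0.13) and 7 of 9 inner cell mass and hypoblast genes (0.16). Of the cumulus and granulosa genes 4 of 8 were above 0 (median −0.006). Beside these counts, 2.35% of all named genes passed in either direction.

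Of 12 oocyte genes 7 were measured and 0 passed with limma, with 1, DPPA3, at an unadjusted p under 0.05, with sums of 6344 to 11526 in insulin and 7735 to 14668 in control channels. GDF9, ZP2, ZP4, NLRP5 and DAZL were below the filter. Over both doses 1 of the 7 measured oocyte genes was above 0 (median −0.13). Of 10 sperm genes 6 were measured and PRM1 fell (−0.64, adjusted p = 0.00438), with sums of 1204 to 2127 in insulin and 1598 to 2467 in control channels. Of those 6, 2 were above 0 over both doses (median −0.12). For every list the ranges of the 2 channels overlapped. These ranges run over all 8 arrays and do not pair the channels of an array, so the overlap does not tell whether insulin and control differed. The part of these marker differences in the MAP2K2 and MAP2K5 results was not tested.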

How the data were processed

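Per the file headers, the authors deposited the scanner's median intensity and median background of each spot in Cy5 and Cy3. Their deposited log2 ratios, with steps not given in the sources used here, served as an alternative. Against the ratios computed here their correlation was 0.985 to 0.997, their slope 0.893 to 1.07 and their median −0.02 to 0.01, from which base, direction and centring were taken; scaling between arrays is unknown. Per the labels' protocols, PicoPure RNA went through 2 rounds of amplification and was labelled at guanine bases, and both amplification and base-dependent labelling can alter ratios. No scanner software is named in the labels or headers used here.

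Intensities were corrected with normexp (offset 50) and normalised within arrays by loess, with control spots at weight 0. Of the spots, 139 marked to be ignored were left out. Channel intensities were also scaled between arrays (Aquantile). A reading was detected above the mean plus 2 SD of 153 negative control spots, and probes with at least 4 of 16 detected readings were kept (29362 of 43794). The fit used limma 3.58.1 (lmFit, eBayes; R 4.3.3) with an effect for each dose and a dye effect shared by all 8 arrays. The dye effect also takes up any difference between replicates 1 and 2 and replicates 3 and 4. It passed for 1521 probes and for 0 of the 11 probes described. The scripts were tested on simulated data.

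Platform symbols named 21790 probes with 1 gene each and left 22004 without. RefSeq synonyms (assembly ARS-UCD2.0) updated older symbols of listed genes. Listed genes outside the 9 stand at their brightest tested probe. Of these, genes past the threshold were named, with the 2 of each list with the lowest unadjusted p over both doses, and the 3 genes most like each called gene. The genes described and the lists were chosen with earlier results of these data known.

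Ratios of the same replicate number deviated together from their dose means (r = 0.311, 0.222, 0.258 and 0.250 for replicates 1 to 4). Dye orientation goes with the number and enters these values; within an orientation, the difference of replicates 1 and 2 correlated between doses at 0.261 and that of replicates 3 and 4 at 0.225. The numbers, which come from the labels, were therefore taken as pairing the arrays. Fits with the replicate as a block were alternatives. Others changed the background, normalisation, filter, dye term or fit, used the authors' ratios, or left out each array.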

Additional observations from a re-analysis of the deposited data

How the results depend on the processing

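Called values kept their direction in all 43 recomputations for both doses averaged and all 23 at INS10, and among values not called the sign changed in 19 of 215 for both doses averaged, 16 of 270 for INS0.1, 14 of 247 for INS10 and 16 of 258 for INS10 against INS0.1. For both doses averaged, 1 of the tested probes passed under every alternative, and between doses 0 did. At INS0.1 the count was 0, and 1, MAP2K2, with probes detected in all 16 readings (adjusted p = 0.0343), with the fixed replicate block (0.0214), with the fixed or the random replicate block with a dye effect for each slide (0.00117 and 0.0367), and 0 to 1 with an array left out. At INS10 the count of 1 became 0 with a normexp offset of 16 (MAP2K2 adjusted p = 0.0518) and with no dye term (0.0699), and was 0 to 1 with an array left out. A block correlation estimated with the shared dye effect was −0.042, so the fits with a dye effect for each slide were added after seeing the data. With a dye effect for each slide the block correlation was 0.21. The main fit takes the 8 arrays as independent and makes no allowance for such a correlation. Of the other pathway genes 1 passed for both doses averaged, and 0 to 6 under the alternatives; the 6, with the fixed replicate block and slide-specific dye effects, were DUSP6, IER3, INPPL1, SOS1 and SPRED1 (lower) and MAP2K5 (higher); IER3 also passed with median centring (0.0361) and without INS10 replicate 2 (0.0420). At a dose 0 passed, except with that same block fit, which called 2 at INS0.1 (DUSP6 at 0.0401 and MAP2K5 at 0.0370) and 1 at INS10 (JUN at 0.0364). A fixed replicate block takes differences between replicate numbers out of the error. Its SEs therefore leave out part of the spread between replicates: for MAP2K2 over both doses the SE was 0.10 with that fit, against 0.15 in the main fit. With the random block and the same dye effects 0 of these genes passed, over both doses or at a dose. MAP2K5 also lost its call with an offset of 16 (0.0573), no background subtraction (0.0533), median centring (0.0574), no dye term (0.143), the authors' deposited ratios (0.0520) and the random block with a dye effect for each slide (0.0694), and its probe did not pass the filter of all 16 readings. Over all probes, 490 passed for both doses averaged, 262 with no dye term, 1249 with the fixed block and slide-specific dye effects, and 277 to 604 with an array left out. At INS0.1, 30 passed, against 2 (offset 16), 9 (no background subtraction), 8 (median centring), 0 (scaling between arrays, no dye term, or the dose alone), 58 (all 16 readings), 80 (fixed block), 531 and 59 (fixed and random block with a dye effect for each slide), and 0 to 218 with an array left out. At INS10, 129 passed, against 11 (offset 16), 0 (no dye term), 289 (the dose alone), 460 (fixed block with a dye effect for each slide), and 0 to 199 with an array left out. The cause was not tested. The excess of MAP2K2 over MAP2K1 ranged from 0.99 to 1.29 over 13 alternatives. Probes detected in few readings, such as those of PIK3R1 and the dimmer probes of PIK3R2 and GRB2, are limited by signal over background.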

Other observations

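DUSP6, a phosphatase of ERK, had log2 ratios of −0.03, −0.58, −1.0 and −0.50 at INS0.1 and of 0.00, −0.31, −0.58 and 0.34 at INS10. The estimate was −0.53 at INS0.1 (limma, adjusted p = 0.327) and −0.14 at INS10 (0.976). JUN, a transcription factor of the immediate early response, had −0.09, −0.28, −0.14 and 0.77 at INS0.1 and 0.84, 0.39, 0.15 and 0.78 at INS10, above control on 4 of 4 arrays of the higher dose (0.54, adjusted p = 0.341). Neither passed, and neither differed between doses past the test (adjusted p = 0.99992 for both). With the fixed replicate block and slide-specific dye effects, a fit added after seeing the data, DUSP6 passed at INS0.1 (adjusted p = 0.0401) and JUN at INS10 (0.0364). That fit takes differences between replicate numbers out of the error, so its SEs leave out part of the spread between replicates. With the random block and the same dye effects neither gene passed. Both genes were chosen after their values were seen.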
